A study of Mus musculus with 15 samples.

Results

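The RNA-seq table of mouse cortex was searched for the genes of the small nucleolar ribonucleoproteins (snoRNPs), the protein partners of the class of RNA that is deleted in *Snord116del* mice. The 9 genes were chosen by symbol for their known function in the particles, and all 9 were found among the 23235 genes of the table. All 9 were also among the 10297 genes whose mean over the 4 groups reached 1 FPKM, the tested genes to which the shares below refer unless another set is named. FPKM is the number of fragments divided by the length of the transcript and by the depth of the library.

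The study compared the adult cerebral cortex of male wild-type (WT) mice on the C57BL/6J background with that of *Snord116del* (+/-) littermates, strain B6(Cg)-Snord116tm1.1Uta/J, which carry the deletion on the chromosome inherited from the father. Heterozygous fathers were mated to WT mothers. The tissue was taken in the light phase at Zt +6 from 3 WT and 2 *Snord116del* mice, or in the dark phase at Zt +16 from 2 WT and 2 *Snord116del* mice, where Zt is the time in hours after the lights were turned on. A second experiment, chromatin isolation by RNA purification followed by sequencing (ChIRP-seq) of adult mouse brain, recovered DNA with oligos against *116HG*, the spliced host RNA that remains once the *Snord116* snoRNAs have been cut out of their introns. Peak lists were held for 2 WT *116HG* libraries, 1 *Snord116del* *116HG* library, and 1 library of each genotype with non-specific control (NSC) oligos.

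The table gives 1 FPKM value for each gene and group, with the mice of a group already combined. No spread between mice could be computed, so no difference below has a test, an error or a p-value. A gene was called higher or lower when its FPKM + 1 differed by at least 1.5-fold between 2 groups, which is 0.58 on the log2 scale. Where 2 values are given for a time, WT comes before *Snord116del*. The labels of 1 WT and both *Snord116del* mice at Zt +6 name a differently titled version of the table. The depth of each mouse is not in the table, and in whole cortex fewer cells of a type and less RNA per cell cannot be told apart.

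A snoRNP is built around a guide RNA that base-pairs with its target. Box C/D RNAs carry the 4 proteins encoded by *Nop56*, *Nop58*, *Fbl* and *Nhp2l1*, and direct 2′-O-methylation of ribosomal and spliceosomal RNA. Box H/ACA RNAs carry the proteins of *Dkc1*, *Gar1*, *Nop10* and *Nhp2*, and direct the conversion of uridine to pseudouridine, and the same proteins bind telomerase RNA. *Nolc1* encodes Nopp140, a phosphoprotein that shuttles between the nucleolus and Cajal bodies and accompanies both kinds of particle. Most snoRNAs of mammals are cut from introns of host genes, and some of the snoRNP genes are themselves such hosts. *Snord116* RNAs are of the box C/D kind and have no established target in ribosomal RNA.

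The RNAs that these proteins bind were read from the mouse genome (NCBIM37, the assembly of mm9) at the positions of the GENCODE annotation. 4 of them are shown: 1 of the 27 annotated *Snord116* copies as the deleted RNA, 2 box C/D snoRNAs from introns of *Nop56* and *Nop58*, and a box H/ACA snoRNA from an intron of *Nop56*. In the first 3, capitals mark the C box (TGATGA) and the D box (CTGA) at which the core proteins assemble. In the last, capitals mark a candidate H box (ANANNA) and the ACA box at the 3′ end.
SNORD116, chr7:66928831-66928924, minus strand: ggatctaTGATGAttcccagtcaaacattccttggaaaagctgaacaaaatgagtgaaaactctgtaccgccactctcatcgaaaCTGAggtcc
Snord110, chr2:130101242-130101309, plus strand, intron of Nop56: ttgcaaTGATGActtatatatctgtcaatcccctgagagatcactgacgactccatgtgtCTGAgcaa
Snord11, chr1:59761634-59761717, plus strand, intron of Nop58: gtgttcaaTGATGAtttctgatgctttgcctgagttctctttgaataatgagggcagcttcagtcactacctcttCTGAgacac
SNORA51, chr2:130101973-130102105, plus strand, intron of Nop56: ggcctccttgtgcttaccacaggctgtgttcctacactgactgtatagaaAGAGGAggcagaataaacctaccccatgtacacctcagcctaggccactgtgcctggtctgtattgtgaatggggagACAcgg
The 2 box C/D RNAs shown from snoRNP genes hold the exact C and D boxes of SNORD116 near their ends. Not all hosted box C/D RNAs did. SNORD56 and Snord57 of *Nop56* and Snord70 and SNORD70 of *Nop58* held no exact TGATGA, and only their D box was marked. In all, 9 annotated snoRNAs lay in introns of the 9 genes, 4 in *Nop56*, 4 in *Nop58* and 1 in *Dkc1*, and the other 6 genes held none. The table lists *Snord110*, *Snord57*, *Snord11* and *Snord70* at 0 in all 4 groups. It lists 90 of its 105 snoRNA names at 0 throughout, *Snord116* among them, so it holds no value for the deleted snoRNA or for the snoRNAs of the snoRNP host genes. *Ipw*, a noncoding RNA of the same imprinted locus, was lower in *Snord116del* at both times, at 21.6 and 3.40 FPKM at Zt +6 and at 3.17 and 1.82 at Zt +16.

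The levels of the 9 genes spanned a wide range that followed neither particle. *Nop10*, the smallest H/ACA protein, and *Nhp2*, its partner in the same particle, were the highest on the per-length scale, with means of 42.8 and 25.4 FPKM over the 4 groups. Next were 2 box C/D genes, *Nop56* with a mean of 16.0 FPKM and *Nhp2l1* with 13.8 FPKM. *Nolc1* at 7.22, *Fbl* at 6.92 and *Nop58* at 3.55 FPKM followed. *Dkc1* at 2.10 and *Gar1* at 1.63 FPKM were the lowest, so the catalytic subunit of the H/ACA particle and 1 partner stood far below the other 2. Whether neighbours in this order differ beyond the spread between mice could not be asked.

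**Figure D1:**
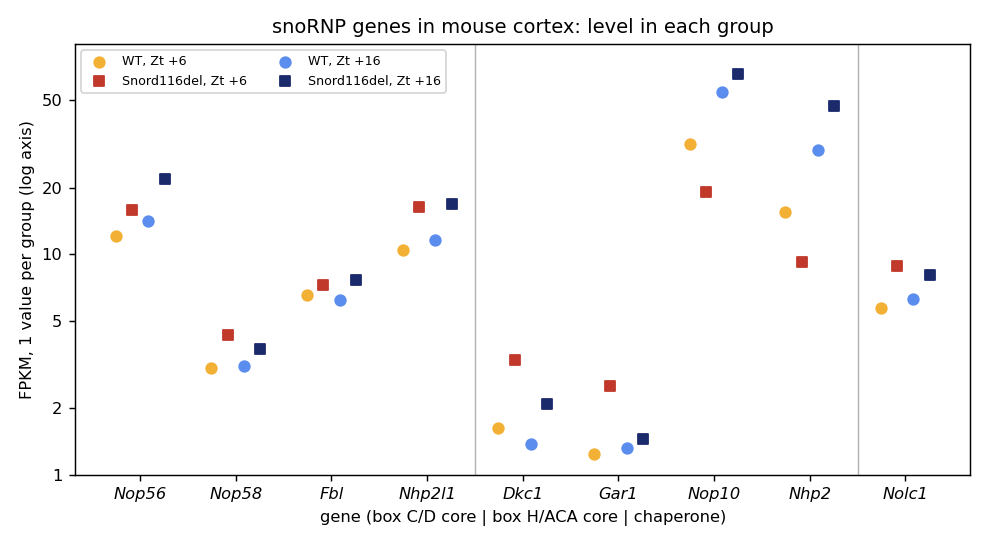
FPKM of the 9 snoRNP genes (vertical log axis) in the 4 groups, 1 point per group, with circles for WT and squares for *Snord116del*. For 7 genes the *Snord116del* square lies above the WT circle at both times, and for *Nop10* and *Nhp2* it lies below at Zt +6 and above at Zt +16.

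Among the box C/D genes, *Nop56* and *Nop58* encode the 2 related scaffold proteins of the particle. *Nop56*, at chr2:130100166-130105049 on the plus strand with 12 exons, stood at 12.1 and 16.0 FPKM at Zt +6 and at 14.1 and 21.9 at Zt +16. The 2 *Snord116del* values were the 2 highest. *Nop58*, at chr1:59741853-59768968 on the plus strand with 15 exons, stood at 3.06 and 4.32 FPKM at Zt +6 and at 3.12 and 3.72 at Zt +16. Here too both *Snord116del* values lay above both WT values, and the WT values were nearly equal at the 2 times. *Fbl*, at chr7:28954765-28964288 on the plus strand, encodes fibrillarin, the methyltransferase. It stood at 6.53 and 7.29 FPKM at Zt +6 and at 6.19 and 7.66 at Zt +16, the narrowest range of the 9 genes, with a highest group 1.24 times the lowest. *Nhp2l1*, at chr15:81871749-81878028 on the minus strand, encodes the protein that first recognises the C/D motif and also binds U4 snRNA of the spliceosome. It stood at 10.4 and 16.5 FPKM at Zt +6 and at 11.6 and 16.9 at Zt +16, in 2 pairs by genotype on the scale as deposited.

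Among the box H/ACA genes, *Dkc1*, at chrX:72341193-72355116 on the plus strand, encodes dyskerin, the pseudouridine synthase. It stood at 1.62 and 3.30 FPKM at Zt +6 and at 1.38 and 2.10 at Zt +16. *Gar1*, at chr3:129527830-129534314 on the minus strand, encodes the subunit that joins last and helps to release the substrate. It stood at 1.24 and 2.52 FPKM at Zt +6 and at 1.32 and 1.45 at Zt +16. As deposited, 1 group, *Snord116del* at Zt +6, stood apart from the other 3. With the groups scaled to the same median, the log2 change of *Gar1* by genotype at Zt +6 was 0.12. *Nop10*, at chr2:112102083-112103426 on the plus strand, encodes a small protein that contacts dyskerin. It stood at 31.6 and 19.2 FPKM at Zt +6 and at 54.3 and 65.9 at Zt +16. *Nhp2*, at chr11:51433237-51437216 on the plus strand, encodes an RNA-binding protein related to that of *Nhp2l1*. It stood at 15.5 and 9.23 FPKM at Zt +6 and at 29.8 and 47.2 at Zt +16. For both genes the groups fell in the same order as deposited, with *Snord116del* at Zt +6 the lowest and *Snord116del* at Zt +16 the highest. The top place of *Nop10* depended on the scale. With the groups scaled to the same median, its log2 change by genotype at Zt +16 was -0.18.

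*Nolc1*, at chr19:46150353-46160018 on the plus strand with 13 exons, stood at 5.73 and 8.84 FPKM at Zt +6 and at 6.26 and 8.07 at Zt +16. Both *Snord116del* values were above both WT values. As deposited, that was so for 7 of the 9 genes, all but *Nop10* and *Nhp2*, where 41.7% of all tested genes had this order. With the groups scaled to the same median, *Snord116del* stood above WT for 2 of the 9 at Zt +6 and for 4 of the 9 at Zt +16.

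The comparison of genotypes at Zt +6 asked how the loss of the *Snord116* locus bears on transcripts in the light phase. The log2 change of FPKM + 1 was above 0 for 7 of the 9 genes as deposited, where it was for 7989 of all 10297 tested genes. It was above 0 for 2 of the 9 when the groups were given the same median. *Dkc1* (0.71), *Gar1* (0.65) and *Nhp2l1* (0.61) were called higher, 3 of 9 genes where 49.3% of all tested genes were. *Nop10* (-0.69) and *Nhp2* (-0.69) were called lower, 2 of 9 where 7.62% of all tested genes were. Of all genes called at Zt +6, 86.6% were higher, a share of 38.1% when the 4 groups were given the same median. *Nolc1* (0.55), *Nop58* (0.39), *Nop56* (0.37) and *Fbl* (0.14) were not called. The median of the 9 genes was 0.39, below the 0.57 of all tested genes, so relative to the whole table most snoRNP genes stood near or under the middle. Against that median, *Dkc1* was higher by 0.14, *Gar1* by 0.08 and *Nhp2l1* by 0.04 on the log2 scale. *Nhp2l1* turned to -0.16 under the same median. The log2 changes of *Nop10* and *Nhp2* were below 0 under every scaling tried and with the length trend described below removed. *Nop10* and *Nhp2* lay 1.26 under the median of the table, at the 6.07 and 6.05 percentile of all changes.

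**Figure D2:**
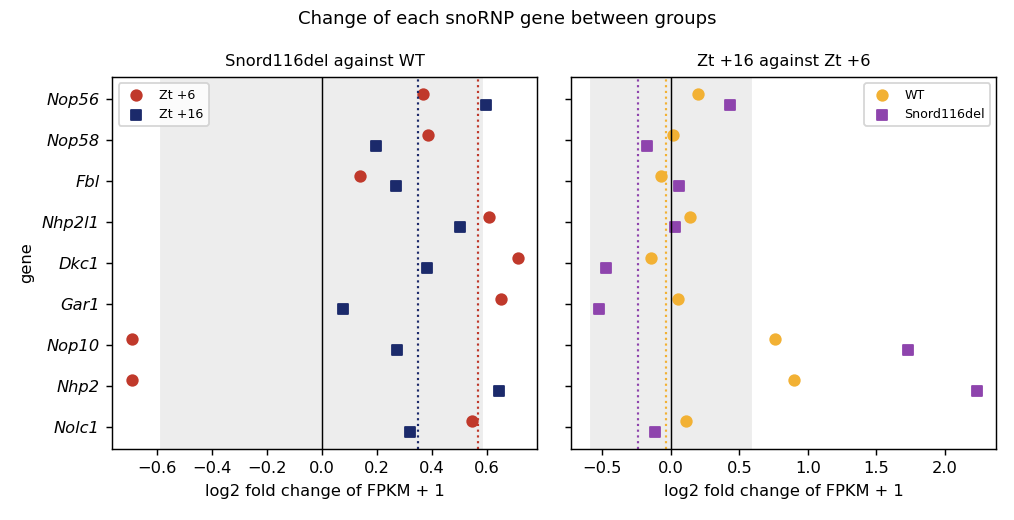
Log2 change of FPKM + 1 (horizontal axes) of the 9 genes, by genotype on the left and by time on the right, 1 point per comparison. The grey band holds changes under 1.5-fold and dotted lines mark the medians of all tested genes, which are 0.57 at Zt +6 and 0.35 at Zt +16 on the left. *Nop10* and *Nhp2* are the 2 genes left of 0 by genotype and the 2 genes right of the band by time.

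At Zt +16, in the dark phase, all 9 genes had a log2 change above 0 as deposited, as had 9965 of all 10297 tested genes. With the same median 4 of 9 did, and with the same total FPKM in every group 1 of 9, *Nhp2*. The spread among the 9 was smaller than at Zt +6. *Nhp2* (0.65) and *Nop56* (0.60) were called higher, 2 of 9 genes where 19% of all tested genes were. None of the 9 was called lower, where 0.204% of all tested genes were. Of all genes called at Zt +16, 98.9% were higher, against 70.4% with the same median and 23.9% with the same total FPKM in every group. The other changes ran from *Nhp2l1* (0.50), *Dkc1* (0.38), *Nolc1* (0.32), *Nop10* (0.27), *Fbl* (0.27) and *Nop58* (0.20) to *Gar1* (0.08). The median of the 9 genes was 0.32 beside 0.35 for all tested genes. Of the 2 called genes, *Nop56* turned to -0.027 with the same total FPKM.

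The 2 genotype changes came from different mice, and their difference was taken for each gene as the log2 change at Zt +16 minus that at Zt +6. It was 1.34 for *Nhp2*, 0.97 for *Nop10*, 0.23 for *Nop56* and 0.13 for *Fbl*. It was -0.11 for *Nhp2l1*, -0.19 for *Nop58*, -0.23 for *Nolc1*, -0.33 for *Dkc1* and -0.57 for *Gar1*. The median of the 9 genes was -0.11 beside -0.22 for all tested genes. Within the H/ACA particle the 4 genes therefore took both the highest and the lowest places among the 9.

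Across time in WT, *Nhp2* (0.90) and *Nop10* (0.76) were called higher at Zt +16 than at Zt +6, 2 of 9 genes where 5.71% of all tested genes were. None of the 9 was called lower, where 10.3% of all tested genes were. Both stayed above 0 under every scaling tried, but both lost the call with the same total FPKM in every group (*Nhp2* 0.48, *Nop10* 0.33), and *Nop10* also with quantile normalization (0.41). The other 7 genes lay between -0.14 for *Dkc1* and 0.20 for *Nop56*. In *Snord116del*, the same 2 genes were again called higher, *Nhp2* by 2.24 and *Nop10* by 1.73, where 25% of all tested genes were higher, 39.1% lower and 64% called in either direction. Of all called genes, 35.7% were higher at Zt +16 in WT and 39.0% in *Snord116del*, against 1.71% and 11.1% with the same total and 53.1% and 56.9% with the same median in every group. The other 7 lay between -0.53 for *Gar1* and 0.43 for *Nop56*. On the linear scale, *Nhp2* was 5.11 times and *Nop10* 3.43 times as high in *Snord116del* at Zt +16 as at Zt +6, against 1.92 and 1.72 times in WT. These 4 comparisons share their groups in pairs, so a low value in 1 group enters 2 of them: *Nop10* and *Nhp2* were lowest in *Snord116del* at Zt +6, which is both the numerator of the genotype change and the denominator of the time change.

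The ratio of 2 subunit genes within a group does not depend on the factor by which a group was scaled. It does carry the relation with transcript length described below. By genotype at Zt +6 the trend was -0.20 at the length of *Nop10*, -0.28 at that of *Nhp2*, -0.13 at that of *Gar1* and 0.52 at that of *Dkc1*. For time in *Snord116del* it was 0.99, 1.06, 0.90 and -0.12. The part of the trend in these ratios was not tested. For *Nop10* over *Dkc1* it was 19.5 and 5.81 at Zt +6 and 39.5 and 31.4 at Zt +16. For *Nhp2* over *Dkc1* it was 9.57 and 2.79 at Zt +6, and 21.6 and 22.5 at Zt +16. Both ratios were lowest in *Snord116del* at Zt +6, and the highest group was 6.79 and 8.04 times the lowest. *Gar1* over *Dkc1* moved little, at 0.766 and 0.764 at Zt +6 and 0.960 and 0.690 at Zt +16, and *Nop10* over *Nhp2* was 2.04 and 2.08 at Zt +6 and 1.82 and 1.40 at Zt +16. The highest group was 1.39 and 1.49 times the lowest for these 2 ratios, so each pair kept its own proportion more closely than the proportion between the pairs.

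**Figure D3:**
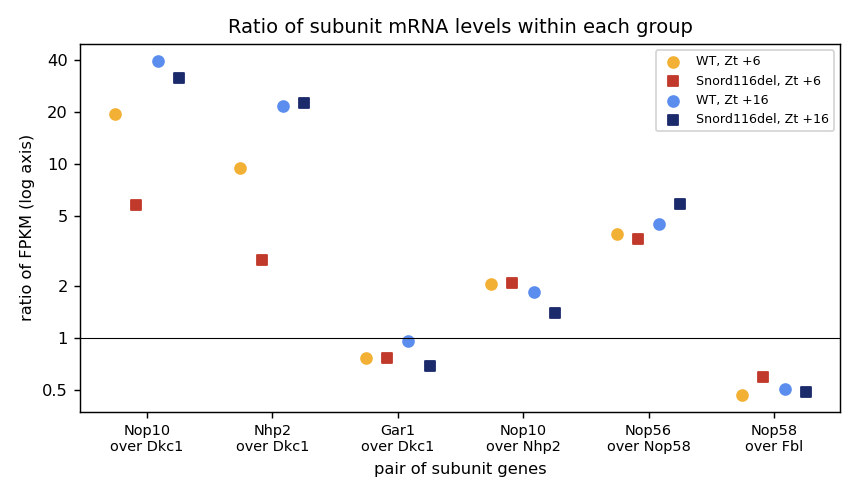
Ratio of the FPKM of 2 subunit genes (vertical log axis) in each of the 4 groups, 1 point per group, with a line at a ratio of 1. The ratios of *Nop10* and *Nhp2* to *Dkc1* drop to 5.81 and 2.79 in *Snord116del* at Zt +6, while the other 4 ratios span at most 1.59-fold over the groups. The relation with transcript length was not removed from these ratios.

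In the C/D particle the ratios varied less than those of *Nop10* and *Nhp2* to *Dkc1*. The highest group was 1.59 times the lowest for *Nop56* over *Nop58* and 1.54 times for *Nop56* over *Fbl*. It was 1.41 times for *Nhp2l1* over *Fbl* and 1.26 times for *Nop58* over *Fbl*. The H/ACA ratios *Gar1* over *Dkc1* (1.39) and *Nop10* over *Nhp2* (1.49) lay in the same range. *Nop56* over *Nop58* was 3.97 and 3.70 at Zt +6, and 4.53 and 5.88 at Zt +16. *Nop58* over *Fbl* was 0.469 and 0.592 at Zt +6 and 0.504 and 0.486 at Zt +16. The highest of the 4 C/D genes was 3.97, 3.81, 4.53 and 5.88 times the lowest in the groups WT at Zt +6, *Snord116del* at Zt +6, WT at Zt +16 and *Snord116del* at Zt +16. The same measure for the 4 H/ACA genes was 25.4, 7.61, 41.1 and 45.5.

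The measured changes followed transcript length over the whole table. Over 10165 tested genes with an annotated transcript, Spearman's rho between log2 change and length was 0.646 for genotype at Zt +6 and -0.390 at Zt +16. It was -0.500 for time in WT and -0.635 for time in *Snord116del*. These are correlations across genes of 1 table, and genes are not independent replicates. At Zt +6 the median log2 change was -0.45 for 804 genes under 1000 bases and 1.07 for 3146 genes of 4000 bases or more. The annotated transcripts of *Nhp2* (1042 bases), *Nop10* (1109), *Fbl* (1161), *Gar1* (1271), *Nhp2l1* (1283) and *Nop56* (1877) are short, and those of *Nop58* (2587), *Dkc1* (2804) and *Nolc1* (3634) longer.

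**Figure D4:**
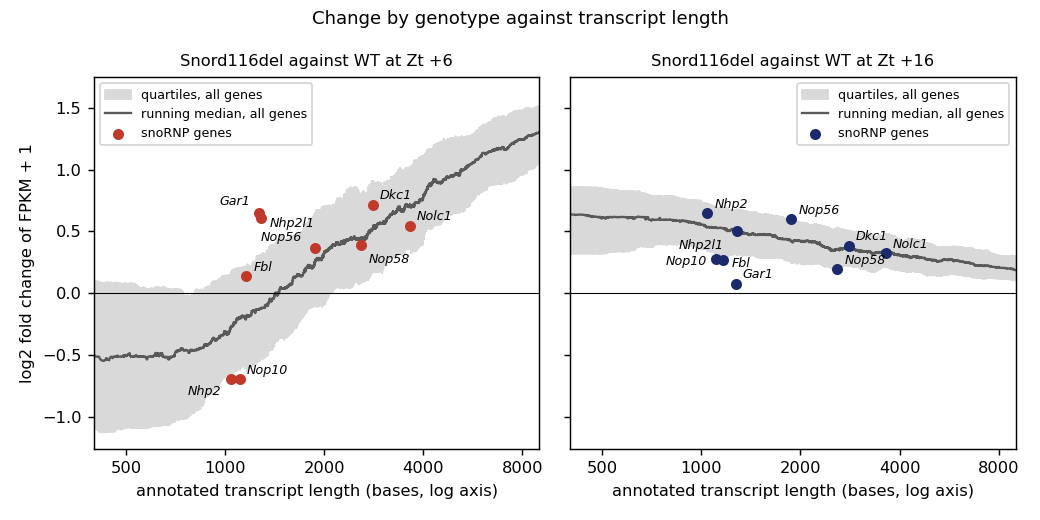
Log2 change of FPKM + 1 by genotype (vertical axes) against annotated transcript length (horizontal log axes) at Zt +6 on the left and Zt +16 on the right. The line is the running median and the band the quartiles over all tested genes, and the points are the 9 snoRNP genes. At Zt +6 the line rises with length and *Gar1* and *Nhp2l1* lie above the band, while *Nop10* and *Nhp2* lie below the line.

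A running median over genes ordered by length was subtracted to compare each gene with others of its length. At Zt +6 this left *Gar1* at 0.78 and *Nhp2l1* at 0.73, the 93.4 and 92.3 percentile of all genes so treated. *Nop10* was left at -0.50 and *Nhp2* at -0.42, which no longer passed the fold rule, at the 16.7 and 20.5 percentile. *Fbl* moved up to 0.32, and *Dkc1* (0.19), *Nop56* (0.11), *Nop58* (-0.06) and *Nolc1* (-0.15) came near to the line. So *Dkc1*, called higher as measured, lay close to genes of its length, while the short genes *Gar1*, *Nhp2l1* and *Fbl* lay above theirs. At Zt +16 the remainders were smaller, from -0.43 for *Gar1* to 0.18 for *Nop56*. For time in *Snord116del*, *Nhp2* kept 1.18 and *Nop10* 0.74, whereas *Gar1* (-1.43), *Fbl* (-0.94) and *Nhp2l1* (-0.86) lay far under genes of like length. For time in WT, *Nhp2* was left at 0.62 and *Nop10* at 0.50, the latter under the fold rule. What lies behind the relation with length was not tested.

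Reads of some of these genes may be shared with other places in the genome. The spliced transcripts were cut into stretches of 32 bases, and 95.4% of those of *Nhp2l1* and 89.0% of those of *Fbl* were also found elsewhere in NCBIM37. The closest copy of *Fbl* held 85.6% of its stretches and overlapped the annotated pseudogene *Gm5812*, and that of *Nhp2l1* held 74.4% and overlapped *Gm5616*. Of *Nop56*, 41.2% of stretches were found elsewhere, with 36.7% at 1 place. The share was 10.4% for *Dkc1*, 9.09% for *Nop10* and 4.85% for *Nhp2*, and under 3% for *Nolc1* (2.89%), *Gar1* (0.89%) and *Nop58* (0.23%). How the counting shared such reads is not stated. The FPKM values of *Nhp2l1*, *Fbl* and *Nop56* are uncertain on that account, by an amount that was not estimated. The 3′ ends of *Nop56*, *Nhp2* and *Dkc1* also lie beside *Idh3b*, *Rmnd5b* and *Mpp1*, and the use of strand in the counting is not stated.

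Other genes of the snoRNP pathway were followed as lists, with changes as deposited. With the same median in every group, the median log2 change of all tested genes at Zt +6 was -0.060 in place of 0.57, and the counts under that scaling are given beside each list. Of 8 box C/D assembly factors, 7 passed the filter, and at Zt +6 none was called higher and 2 lower (0 and 3 with the same median), where 49.3% of all tested genes were higher and 7.62% lower. Those were *Znhit3* (-0.86), at 8.81 and 4.41 FPKM, and *Pih1d1* (-0.60), at 8.68 and 5.39. *Pih1d1* belongs to the R2TP complex that loads *Nop58* and *Nhp2l1* onto the nascent particle. Both genes have short transcripts, of 998 and 1185 bases. With the length trend removed, *Znhit3* was left at -0.55 and *Pih1d1* at -0.42, both under the fold rule. The median of the list was 0.09 beside 0.57 for all tested genes, and -0.42 with the length trend removed. The 2 ATPases of the same complex, *Ruvbl1* (0.50) and *Ruvbl2* (-0.14), were not called. In *Snord116del*, *Znhit3* (1.94), *Pih1d1* (1.67) and *Ruvbl2* (1.10) were called higher at Zt +16, 3 of 7 where 25% of all tested genes were, and none lower. With the same total FPKM in every group 2 were higher and 3 lower, and with the same median 5 were higher and none lower.

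The 6 measured factors of H/ACA assembly and of small Cajal body RNPs included 3 called higher and none lower at Zt +6 (1 and 1 with the same median), beside the same 49.3% and 7.62% of all tested genes. They were *Naf1* (0.65), which holds the place of *Gar1* during assembly, *Tgs1* (1.17), which hypermethylates the cap of some snoRNAs, and *Tcof1* (0.97), the treacle protein. *Tgs1* and *Tcof1* have transcripts of 4327 and 4577 bases. With the length trend removed the median of the list was 0.08. At Zt +16 none of the 6 was called in either direction.

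Of 26 genes of the U3 snoRNP and the small-subunit processome, 21 were measured, and at Zt +6 11 were called higher and 1 lower (1 and 3 with the same median), with a median of 0.66. The share of 11 in 21 stands beside 49.3% of all tested genes called higher, and that of 1 in 21 beside 7.62% called lower. *Bms1* (1.18), *Mphosph10* (0.85) and *Wdr43* (0.82) had the highest values among the 11. The gene called lower was *Imp3* (-1.31), a partner of *Mphosph10* in the U3 particle, at 56.3 and 22.1 FPKM at Zt +6 and 98.3 and 171.5 at Zt +16. As deposited, *Imp3* thus had the group order of *Nop10* and *Nhp2*, with a transcript of 898 bases. With the length trend removed, its change by genotype at Zt +6 was -0.91, still past the fold rule. Of 12 measured nucleolar and RNA polymerase I genes, 7 were called higher and none lower at Zt +6 (0 and 2 with the same median), beside the same background, with a median of 0.66. *Polr1a* (1.10), the largest subunit of the polymerase, and *Ttf1* (0.75), its termination factor, were the highest 2. *Ncl* (0.45) and *Npm1* (0.13), the abundant nucleolar proteins nucleolin and nucleophosmin, were not called. With the length trend removed, the medians of the 2 lists were 0.00 and -0.04. At Zt +16, 2 of 21 and 0 of 12 genes were called higher, where 19% of all tested genes were, with medians of 0.26 and 0.25.

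Among structural relatives of the snoRNP proteins, *Fbll1*, a paralog of *Fbl*, stood at 13.6 and 4.97 FPKM at Zt +6 and at 22.3 and 31.2 at Zt +16. Its log2 change by genotype at Zt +6 was -1.29, which was called lower, while *Fbl* changed by 0.14. *Rpl7a*, a ribosomal protein of the same fold family as the products of *Nhp2* and *Nhp2l1*, was called higher (0.72), at 26.2 and 43.8 FPKM, and with the same median *Fbll1* alone of the 5 measured relatives was called. The other measured relatives, *Prpf31* (0.18), *Trub2* (0.49) and *Ftsj1* (0.23), were not called at Zt +6.

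The pattern of the 9 genes over the 4 groups was compared with that of all tested genes by the root mean square distance of log2(FPKM + 1), each gene centred on its own mean. The 5 genes nearest to the median pattern of the 9 were *Zfp420* (0.01), *Pxk* (0.01), *Trmt2a* (0.01), *Rundc1* (0.02) and *Dcaf12l1* (0.02). Of the 9 genes themselves, *Nolc1* lay nearest to that median (0.02), and *Nop10* (0.74) and *Nhp2* (0.89) farthest. *Nop58* and *Nolc1* were each other's nearest (0.08), as were *Dkc1* and *Gar1* (0.12), and *Nop10* and *Nhp2* (0.21). With 4 values per gene, such distances describe the table only.

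The tissue was checked against its markers. Excitatory neuron genes of the cortex were all present, among them *Slc17a7* between 60.3 and 127 FPKM and *Camk2a* between 146 and 688 FPKM, and the cerebellar granule cell genes *Gabra6* and *Cbln3* stayed under 1 FPKM. The third gene of that list, *Zic2*, stood at 2.60 and 2.22 FPKM at Zt +6 and at 3.34 and 4.68 at Zt +16. Several markers moved with the groups in which snoRNP genes differed. At Zt +6, 49.3% of all tested genes were called higher and 7.62% lower, and 15.0% and 24.4% with the same median. At Zt +16, 19% were called higher, and 1.22% with the same median. Of the 4 astrocyte markers, all 4 were called higher in *Snord116del* at Zt +6 (3 with the same median), with a summed level of 85.8 and 272 FPKM, against 42.2 and 60.7 at Zt +16. All 4 endothelial markers were called higher as well (2 with the same median), summed at 4.56 and 17.1 FPKM at Zt +6 and at 2.00 and 2.75 at Zt +16. Oligodendrocyte genes were called higher for 2 of 4 and microglia genes for 3 of 4 (1 and 0 with the same median, under which *Mag* was called lower). Of the 4 general neuron markers 2 were called higher, and with the same median 1 was higher and *Tubb3* lower. The median log2 change at Zt +6 was 1.67 for astrocyte and 1.32 for endothelial markers. With the length trend removed these medians were 0.55 and 0.61. Of the 5 excitatory neuron markers of the cortex, 3 were called higher at Zt +6 (2 with the same median), summed at 364 and 866 FPKM, against 228 and 351 at Zt +16. Of the 4 striatum markers 3 were measured, and all 3 were called higher at Zt +6 (1 with the same median) and 2 at Zt +16 (0 with the same median). The 4 summed to 17.8 and 33.6 FPKM at Zt +6 and to 19.3 and 36.4 at Zt +16. *Ttr*, a choroid plexus gene, stood at 200 and 182 FPKM at Zt +6 and at 24.9 and 29.6 at Zt +16. The 100 most abundant genes held 35.7% and 22.5% of all FPKM at Zt +6 and 44.1% and 46.5% at Zt +16. The part of these differences in the values of the snoRNP genes was not tested.

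In the ChIRP-seq experiment the question was whether DNA at the snoRNP genes was recovered with *116HG*. A peak of WT *116HG* replicate 1 lay inside or within 2 kb of 9 of the 9 genes, where 93.6% of 10165 tested genes had one. Among the 7868 genes with mean FPKM within the range of the snoRNP genes that share was 95.8%, so the 9 genes were like most expressed genes. With either WT *116HG* library counted the share was 94.2%. No snoRNP gene had a peak within 2 kb in WT *116HG* replicate 2, where 17.5% of tested genes had one. None had a peak in the WT NSC (2.53%), *Snord116del* *116HG* (2.86%) or *Snord116del* NSC (10.6%) libraries. The number of peaks also differed, with 78033 in replicate 1, 11145 in replicate 2 and between 1280 and 3648 in the 3 control libraries. The list of replicate 2 gives positions without a height.

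Inside the 9 genes lay 28 peaks of replicate 1, and all 28 had their middle in an exon, where 86.1% of the 60099 peaks inside tested genes did. A peak touched the first 300 bases of 7 genes, all but *Dkc1* and *Gar1*, where 46.4% of tested genes had such a peak. The highest of these 28 peaks by the authors' fold over input was 308, over the first exon of *Nop10* at chr2:112102107-112102237. The first exon of *Nhp2* (174), the second exon of *Nop10* (154 at chr2:112102481-112102825), the first exon of *Nhp2l1* (133) and the last exon of *Nolc1* (123) followed, while the median fold of all peaks of that library was 55.3. *Dkc1*, *Gar1* and *Fbl* held 1 peak each, with folds of 51.3, 42.5 and 51.3. *Nop56* held 5 peaks in 4884 bp and *Nop58* 4 in 27116 bp. A peak of fold 205 at the 3′ end of *Nop56* had its middle in the neighbouring gene *Idh3b* and is not among the 28.

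**Figure D5:**
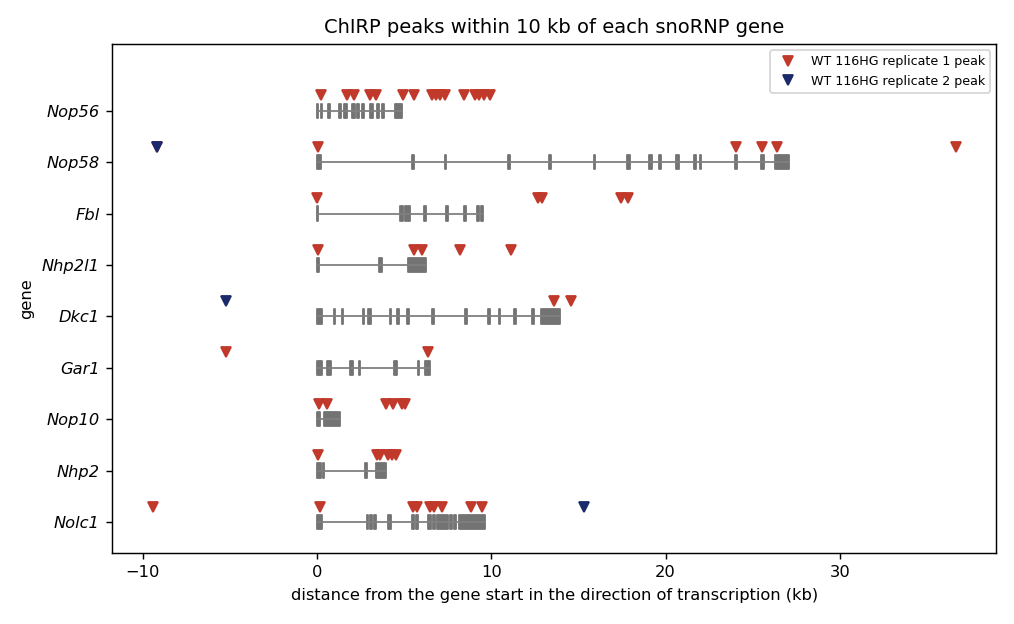
Peaks of the 2 WT *116HG* libraries within 10 kb of the 9 genes, placed by their middle along the distance in kb from the gene start in the direction of transcription. Grey boxes are exons, red triangles replicate 1 and blue triangles replicate 2. Red triangles inside the genes lie over exons, and blue triangles lie outside the genes, at 3 of the 9.

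Of the 5 peaks inside *Nop56*, 1, at chr2:130103407-130103710, covered SNORD56, a box C/D snoRNA in an intron of the gene, together with exon sequence. No peak inside *Nop58* or *Dkc1* covered an annotated snoRNA. A peak of replicate 1 with a peak of replicate 2 within 10 kb lay at *Nop58* and *Nolc1*, 2 of 9 genes where 18% of tested genes had one. The nearest peaks of replicate 2 lay outside the genes, 9152 bp from *Nop58*, 5654 bp from *Nolc1* and 5200 bp from *Dkc1*.

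Promoters were read from RefSeq (GRCm38.p6, a later build than the peak files), where 8 of the 9 genes had an entry, *Nhp2l1* under the name *Snu13*. The window ran from 250 bases before to 50 bases after the start, and both strands were searched. The letters CCGGAAG, a core that proteins of the ETS family are known to bind, were found in 4 of 8 promoters, where 8.86% of 32851 promoters held them. The promoter shares here are over all listed promoters, and those of tested genes alone were not counted. How often other promoters hold the letters close to the start was not counted either. They are shown because the 4 promoters, of *Gar1*, *Nhp2*, *Nhp2l1* and *Nolc1*, belong to genes of both particles and to the chaperone gene and hold the letters close to the start. Capitals mark the letters, or CTTCCGG on the other strand, in the last 60 bases before the start.
Gar1, chr3:129831397-129831456, minus strand: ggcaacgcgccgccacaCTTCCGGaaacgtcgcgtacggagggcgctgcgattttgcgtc
Nhp2, chr11:51619713-51619772, plus strand: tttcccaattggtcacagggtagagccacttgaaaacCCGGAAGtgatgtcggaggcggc
Nhp2l1, chr15:82047599-82047658, minus strand: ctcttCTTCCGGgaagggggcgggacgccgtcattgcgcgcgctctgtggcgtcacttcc
Nolc1, chr19:46075787-46075846, plus strand: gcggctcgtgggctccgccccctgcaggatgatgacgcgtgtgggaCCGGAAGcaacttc
Counted from the start, the match began at -43 in *Gar1*, -23 in *Nhp2*, -55 in *Nhp2l1* and -14 in *Nolc1*. The letters CACGTG, an E-box of the kind bound by Myc and by clock proteins, were in none of the 8 promoters, where 7.15% of all promoters held them. CCAAT was in 4 of 8 (37.4% of all) and TATAAA in 1, that of *Dkc1* (13.6% of all). Of the 4 genes with the ETS letters, *Gar1* (0.65) and *Nhp2l1* (0.61) were called higher by genotype at Zt +6, *Nolc1* (0.55) was not called and *Nhp2* (-0.69) was called lower.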

How the data were processed

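Values of mouse cortex RNA-seq and mouse brain ChIRP-seq were used as deposited. For RNA-seq, the authors aligned reads to mm9 with TopHat2 2.0.5 and deposited 1 Cuffdiff 2.0.2 FPKM value per gene and group, so depth and spread between mice are not in the table, and the limma fit meant for values per mouse could not be made. The table's own log2 fold change and q-value columns, which hold the authors' comparison of genotypes at each time, were not used. For ChIRP-seq, the authors aligned reads with Bowtie2 2.0.0, called peaks with MACS 1.4.2 in each library after CASAVA 1.8.0 base calling, and filtered them by false discovery rate and fold over input. The deposited peak positions were used in all 5 lists and the fold over input, a ratio, in 4, since replicate 2 of WT *116HG* came with positions alone. Versions are those of the submitters' processing notes.

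Log2 changes were taken on FPKM + 1 (pseudocount 1), which understates changes of low genes. Genes were tested if their mean over the 4 groups reached 1 FPKM, and called at 1.5-fold with at least 1 FPKM in the higher group. Groups followed the labels' genotype and time of day. Peaks were joined to genes within 2 kb. Genes were matched by symbol to GENCODE vM1 (21853 of 23235), and 98.7% of tested genes had a transcript length. Alternatives were a pseudocount of 0.1, no filter, a fold of 2, scaling to the same median or total, quantile normalization, the length trend removed, and other peak distances. All 9 members were named, and genes of the other lists past the fold rule. The members and lists were chosen with earlier results of these data known. The fold rule was tested on simulated data. Python 3.11.15, numpy 2.4.6, pandas 2.3.3 and matplotlib 3.10.9 were used.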

Additional observations from a re-analysis of the deposited data

Results flagged for a closer look

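For 2 of the 9 genes the change by genotype went opposite ways at the 2 times. The log2 change by genotype of *Nhp2* was -0.69 at Zt +6 and 0.65 at Zt +16, a difference of 1.34. That of *Nop10* was -0.69 at Zt +6 and 0.27 at Zt +16, a difference of 0.97. The difference was not tested, since each group has 1 value. Lower at Zt +6 and higher at Zt +16, with a call at 1 time or both, was also the pattern of 1361 of 10297 tested genes (13.2%), and the reverse pattern that of 153 (1.49%). At Zt +16, *Nop10* turned to -0.18 with the same median and to -0.37 with the same total FPKM in every group, while *Nhp2* stayed above 0 at 0.19 and 0.003.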

How the results depend on the processing

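No paired analysis was possible because the table holds group values only and its columns carry no replicate numbers. At Zt +6, the 3 genes called higher by genotype became 0 at a fold of 2, with the same median in every group and with quantile normalization. The 2 called lower became 0 at a fold of 2 and 0 with the length trend removed. The median of 0.39 became -0.26 with the same median and -0.11 with quantile normalization. At Zt +16, the 2 called higher became 0 at a fold of 2, with the same median, with quantile normalization, with the same total FPKM and with the length trend removed. The median of 0.32 became -0.088, -0.12, -0.25 and -0.022 under the last 4 of these. For time in WT, the 2 called higher became 0 at a fold of 2, 1 with quantile normalization, 0 with the same total and 1 with the length trend removed, and the median of 0.11 became -0.27 with the same total and -0.023 with the length trend removed. For time in *Snord116del*, 0 called lower became 2 with a pseudocount of 0.1, 7 with the same total and 3 with the length trend removed, and the median of 0.033 became -0.99 with the same total, -0.16 with the length trend removed and -0.12 without *Nop10* and *Nhp2*, a choice made after seeing the data. The median difference between times of -0.11 became 0.23 with the same median and 0.17 with quantile normalization. Single genes reversed in 2 cases, *Nhp2l1* at Zt +6 (-0.16 with the same median) and *Nop56* at Zt +16 (-0.027 with the same total). Of the other values of single genes, differences between times included, 202 kept their direction and, where the fold rule applies, their side of it. With the sign kept, 28 lost and 9 gained a call. Another 65 not called as deposited changed sign. Of these, *Nop56* (-0.61), *Fbl* (-0.89) and *Nhp2l1* (-0.99) then passed the fold rule for time in *Snord116del* with the same total. *Fbl* (-0.94) and *Nhp2l1* (-0.86) did so with the length trend removed. With genes joined within 10 kb, peaks of WT *116HG* replicate 2 reached 3 genes in place of 0. The 2 genes with a replicated peak became 0 by direct overlap and 1 among peaks of the upper quartile of fold over input. The 9 genes with a peak in either WT *116HG* library ranged from 0 to 9 as 1 replicate was left out, 0 being the count without replicate 1. Beyond what each setting does by construction, the cause was not tested. With 1 value per group, no difference can be set against the spread between mice.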
